A study of Mus musculus with 36 samples.

Results

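The genes described here are 38 genes of the urea cycle and of the breakdown of amino acids, all encoding enzymes or enzyme subunits except the ornithine carrier Slc25a15. They were taken from a list of names and matched by symbol to 38 of the 29546 Ensembl gene IDs of a mouse liver expression table. All 38 were found, and all 38 were among the 12596 genes that passed the filter on low values. The livers came from C57BL/6 mice and were measured by QuantSeq, a sequencing method that counts transcripts from reads at their 3′ ends, with molecular identifiers against duplicate reads. Cholestasis was produced in 3 ways, each sampled after 7 and after 28 days in groups of 4. Ligation of the bile duct gave the groups BDL7 and BDL28, set against sham surgery (SHAM). Feeding 0.1% by weight of 3,5-diethoxycarbonyl-1,4-dihydrocollidine, a porphyria-causing compound that injures bile ducts, gave DDC7 and DDC28, set against a control diet (CTLD). Gavage of 15 mg per kg of cyclosporin A, an immunosuppressant, gave CsA7 and CsA28, set against the olive oil it was dissolved in (VEHICLE). The labels name no day for the control livers, so the 4 controls of a model served both of its days, and they call the day 7 livers acute and the day 28 livers chronic cholestasis. No transgene or deletion is named for any group, and the labels give neither the sex nor the age of the animals.

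Hepatocytes turn the nitrogen of surplus amino acids into urea. Ammonia enters the cycle in the mitochondrion and urea leaves it in the cytosol, while the carbon skeletons go to glucose, ketone bodies or one-carbon units. Hepatocytes near the portal vein carry most of the urea cycle and of the glutamine, serine and histidine breakdown, and a thin layer around the central vein takes up the remaining ammonia as glutamine. Glucagon, glucocorticoids and the liver factors C/EBP alpha and HNF4 alpha are known to keep these genes active.

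Values are normalized counts, that is, each library's counts over a single factor of that library, as deposited by the authors. Changes are log2 fold changes ± SE of a limma model on log2(normalized count + 1), fitted to all 36 libraries, and a call means a p under 0.05 after Benjamini-Hochberg adjustment over the 12596 genes. Each library is a separate sample of its group (n = 4). The labels say no more on their origin, so p-values measure the spread between samples. That spread is a single estimate per gene pooled over all 9 groups, not that of the groups compared. Where a group spreads more than the rest, as Arg1 does in BDL28 (SD 2020, against 160 in SHAM), SE and p understate its spread.

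Most of the genes fell in BDL7, DDC7 and DDC28, in BDL28 fewer than that fell, and 1 was called with cyclosporin A. In BDL7, 0 of the 38 rose and 25 fell, beside 20.2% higher and 18.5% lower over all genes tested. In BDL28, 8 rose and 15 fell (24.1% and 22.7% of all genes). DDC7 had 3 that rose and 20 that fell (24.7% and 22.1%), and DDC28 had 7 that rose and 23 that fell (27.9% and 24.7%), with 4 rises when DDC28 replicate 3 or replicate 4 was left out. In CsA7, 0 rose and 1 fell (1.88% and 2.14%), and in CsA28 limma called 0 in either direction (0.00794% and 0.0159%). At an unadjusted p under 0.05, 1 of the 38, Gpt2, differed in CsA28, and edgeR and DESeq2 on the recovered reads also called 0. The median change of the 38 was -0.65 in BDL7, -0.22 in BDL28, -0.41 in DDC7, -0.49 in DDC28, -0.04 in CsA7 and -0.07 in CsA28, while the median over all genes tested lay between -0.00113 and 0.0402. In whole tissue, fewer cells of a type and less RNA per cell cannot be told apart, and this holds for every fall given here.

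Single libraries gave similar counts for falls after ligation and on DDC. In BDL7, all 4 libraries lay below all 4 SHAM libraries for 27 of the 38 genes and above them for 0, beside 19.2% and 19.8% of all genes. The same counts were 14 below and 6 above in BDL28 (18.6% and 18.7%), 20 below and 4 above in DDC7 (20.8% and 23.2%), and 20 below and 3 above in DDC28 (22% and 25%). CsA7 had 2 below and 1 above (5.26% and 5.01%), and CsA28 had 1 below and 0 above (2.64% and 1.85%). The CsA counts, and those above the controls in BDL28, DDC7 and DDC28, are no larger a share of the 38 than of all genes.

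**Figure D1:**
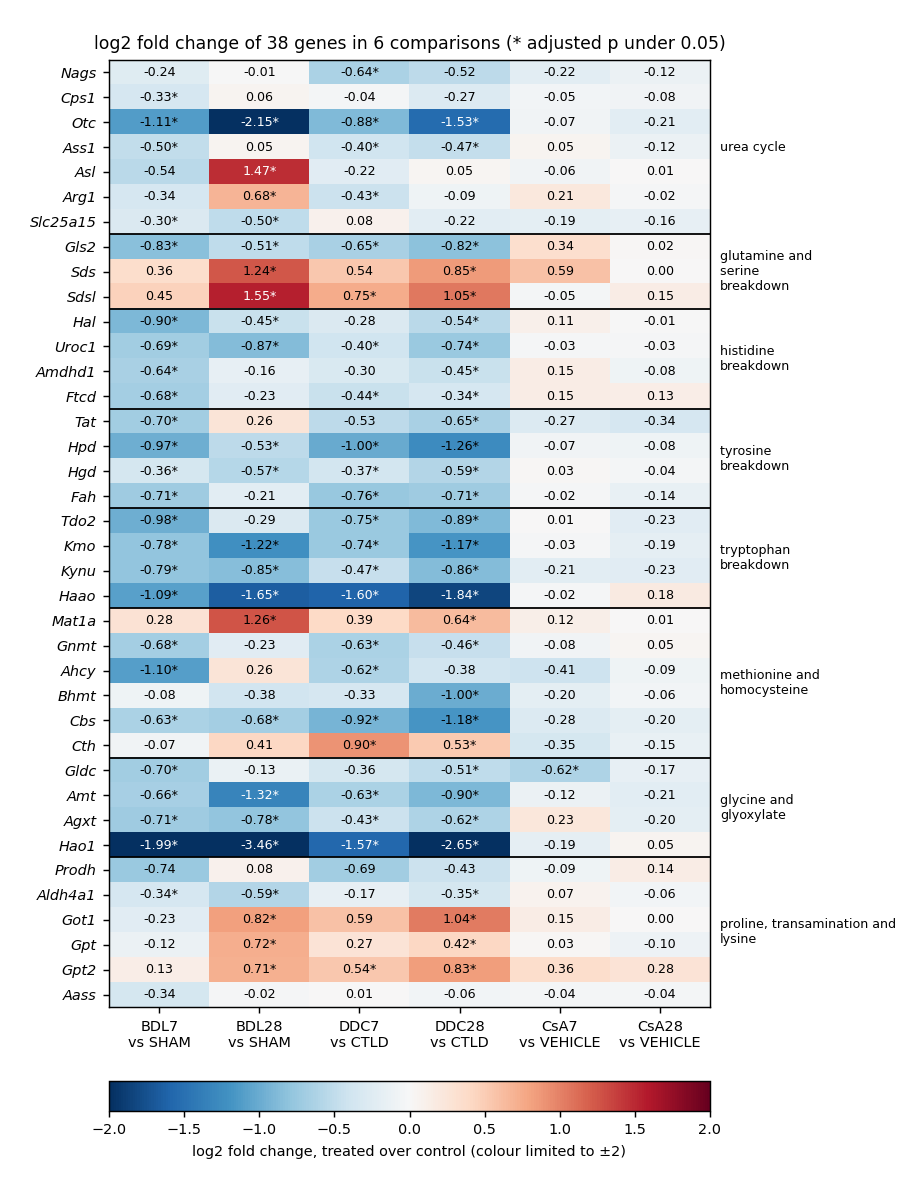
Each row is 1 of the 38 genes, grouped by pathway, and each column 1 of the 6 comparisons of a treated group with its control; colour is the log2 fold change, limited to a range of 2 either way, and a star marks an adjusted p under 0.05. The lowest value is that of Hao1 in BDL28 (-3.46), Asl, Sds, Sdsl and Mat1a are above 1 in BDL28, and the CsA columns hold 1 star, for Gldc in CsA7.

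The markers of the studied tissue were present, and those of other cells moved with the models. None of the 10 hepatocyte markers was at 0 in any library, and their summed level averaged 81040 normalized counts in BDL7 and 85140 in BDL28, against 97170 in SHAM, and 79990 in DDC7 and 80240 in DDC28, against 114500 in CTLD. The sum of all normalized counts of a library was also lower in these groups. It was 2.34e+06 to 2.52e+06 in BDL7 and 2.34e+06 to 2.67e+06 in BDL28, against 2.97e+06 to 3.14e+06 in SHAM. On DDC it was 2.42e+06 to 2.63e+06 in DDC7 and 2.39e+06 to 2.59e+06 in DDC28, against 2.95e+06 to 3.39e+06 in CTLD. The lower marker sums therefore do not by themselves show a smaller share of hepatocyte transcripts. Cholangiocyte markers summed to 2411 in BDL7 and 1594 in BDL28, against 417.8 in SHAM, and to 1587 in DDC7 and 1787 in DDC28, against 373.5 in CTLD, and 4 to 8 of the 8 rose in these 4 groups. Of the 8 fibroblast markers 6 to 7 rose, of the 8 monocyte and macrophage markers 7 to 8, of the 5 Kupffer cell markers 2 to 4 (1 fell in BDL28), and of the 4 neutrophil markers tested 3 to 4; the fifth neutrophil marker, Ly6g, was at 0 in 35 of 36 libraries. Of the 6 markers of T, NK and B cells 0 passed the filter, and of the 6 sinusoidal endothelial markers 2 to 6 fell. Among the 9 pericentral hepatocyte markers 3 to 8 fell, and among 7 periportal ones that are not members 2 to 4 fell and 1 to 2 rose. All these marker counts stand beside 20.2% to 27.9% of all genes called higher and 18.5% to 24.7% called lower in these 4 groups. The smaller of the periportal counts are near those shares. The part of these cell types in the falls was not tested. BDL28 replicate 1 stood apart: its cholangiocyte, fibroblast and monocyte markers summed to 2902, 3245 and 2192, against 1011 to 1311, 892.8 to 1115 and 702.9 to 1177 in the other 3. In DDC28, replicates 1 and 2 lay apart from replicates 3 and 4 in Arg1, Mat1a and Got1, whose values follow. Recovered reads ranged from 2081093 to 3770267 per library.

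Scaling bears on the direction of small changes. The authors' factors centred the genes tested, whereas scaling to the total count moved the median of all genes by 0.289 to 0.386 in the 4 BDL and DDC comparisons, and the 38 genes then had 4 rises and 16 falls in BDL7, 13 and 12 in BDL28, 9 and 9 in DDC7 and 7 and 14 in DDC28. Both scalings apply a single factor per library, which shifts all genes nearly alike. The members' median relative to all genes therefore could hardly differ between them, and its likeness tests nothing. It was -0.66 and -0.65 in BDL7, -0.25 and -0.24 in BDL28, -0.45 and -0.44 in DDC7, and -0.53 and -0.52 in DDC28. Quantile normalization brought it to -0.29 in BDL7, -0.09 in DDC7 and -0.16 in DDC28, and turned it to 0.03 in BDL28.

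The urea cycle was unevenly affected: 1 step fell in both models at both days, and the last steps rose in ligated livers at day 28. Of its 7 genes, 0 rose and 4 fell in BDL7, 2 and 2 did in BDL28, 0 and 4 in DDC7, and 0 and 2 in DDC28. Over all genes tested, 20.2% rose and 18.5% fell in BDL7, 24.1% and 22.7% in BDL28, 24.7% and 22.1% in DDC7, and 27.9% and 24.7% in DDC28. The counts in BDL28 and the falls in DDC28 are near these shares. The counts of the pathways described next stand beside the same shares. The median of the 7 was -0.34, 0.05, -0.40 and -0.27 in BDL7, BDL28, DDC7 and DDC28. Under quantile normalization it was 0.03, 0.45, 0.26 and 0.17, so that the direction for the cycle as a whole depended on the scaling in 3 of the 4 comparisons.

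Of the 7, Otc, which joins carbamoyl phosphate to ornithine in the mitochondrion, fell most. Its level was 733.6, 838.2, 768.7 and 732.7 normalized counts in BDL7, 521.4, 197.5, 363.1 and 515.5 in BDL28, and 1677, 1589, 1664 and 1722 in SHAM. It was 1073, 1045, 1099 and 813 in DDC7, 594.3, 623.8, 678.3 and 639.3 in DDC28, and 1555, 1774, 2130 and 1936 in CTLD. In both models every treated library lay below every control library, and every day 28 library below every day 7 library. The change was -1.11 ± 0.17 in BDL7 (adjusted p = 3.62e-06), -2.15 ± 0.17 in BDL28 (4.45e-12), -0.88 ± 0.17 in DDC7 (8.5e-05) and -1.53 ± 0.17 in DDC28 (5.22e-09), and the call held under every alternative tried.

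Cps1, which makes the carbamoyl phosphate and sets the entry of ammonia, changed little. It stood at 3220, 3738, 4686 and 3873 in BDL7, 3886, 4380, 5760 and 6515 in BDL28, and 4694, 4619, 5283 and 4738 in SHAM. The DDC7 values were 5060, 5069, 5680 and 4169 and the DDC28 values 4007, 3671, 4523 and 4867, against 4433, 5210, 5240 and 5641 in CTLD. The groups overlapped in each of the 4 comparisons. Cps1 fell in BDL7 by 0.33 on the log2 scale (SE 0.13, adjusted p = 0.0445), a call lost under total-count scaling and in most fits that left out 1 library, and turned to 0.39 under quantile normalization. Nags, whose product N-acetylglutamate switches Cps1 on, fell in DDC7 (-0.64 ± 0.24, adjusted p = 0.028; lost without DDC7 replicate 1, DDC7 replicate 4 or CTLD replicate 3, -0.61 to -0.55) and was not called elsewhere.

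Ass1, which adds aspartate to citrulline, was lower in 3 of these groups. It measured 1548, 1708, 2198 and 1913 in BDL7, 2019, 2997, 2866 and 2910 in BDL28, and 2715, 2632, 2529 and 2449 in SHAM. Diet-fed livers had 2397, 2670, 2383 and 2238 in DDC7 and 2002, 2117, 2668 and 2476 in DDC28, against 2854, 3225, 3350 and 3343 in CTLD. All DDC libraries lay below all CTLD libraries, and all BDL7 below all SHAM, whereas 3 of the 4 BDL28 libraries were above every SHAM library. Ass1 fell in BDL7 (-0.50 ± 0.11, adjusted p = 0.000264), DDC7 (-0.40 ± 0.11, 0.00221) and DDC28 (-0.47 ± 0.11, 0.000322), each turning positive under quantile normalization (0.03, 0.26 and 0.18), and was 0.05 ± 0.11 in BDL28 (0.742).

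Asl, which splits argininosuccinate into arginine and fumarate, rose in BDL28. Its libraries read 122.8, 145.5, 195.4 and 203 in BDL7, 303, 1046, 791.2 and 755.6 in BDL28, and 199.5, 279.2, 256.7 and 221.8 in SHAM. In DDC7 it was 307.1, 265.3, 363.7 and 327.2, in DDC28 271.7, 297.7, 499.2 and 509.8, and in CTLD 344.6, 374, 340.6 and 412.4. Every BDL28 library exceeded every SHAM library, with replicate 1 the nearest to them, while the DDC groups overlapped their controls. The rise in BDL28 was 1.47 ± 0.24 (adjusted p = 1.21e-05), and the value in BDL7 was -0.54 ± 0.24 (0.0819).

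Arg1, which releases urea from arginine, was called higher in BDL28 and lower in DDC7, that is, at different days. The difference between the effects of ligation and DDC was not called for Arg1 at either day. Arg1 had 2578, 3155, 3557 and 2646 in BDL7, 3271, 7461, 7205 and 7267 in BDL28, and 3603, 3965, 3752 and 3658 in SHAM. The counts were 3679, 3896, 4064 and 3297 in DDC7, 3633, 3943, 6519 and 5354 in DDC28, and 4319, 6049, 5249 and 4650 in CTLD. In BDL28, replicates 2 to 4 lay far above SHAM and replicate 1 below it, and in DDC28 replicates 1 and 2 lay below CTLD and replicates 3 and 4 within or above it. Arg1 rose in BDL28 (0.68 ± 0.18, adjusted p = 0.00277) and fell in DDC7 (-0.43 ± 0.18, adjusted p just under the threshold, 0.05 when rounded), a call lost in most alternatives and turned to 0.33 by quantile normalization. Slc25a15, the carrier that brings ornithine into the mitochondrion, fell in BDL7 (-0.30 ± 0.12, 0.0436) and BDL28 (-0.50 ± 0.12, 0.000614), the BDL7 value turning to 0.03 under total-count and 0.04 under quantile scaling and its call being lost without BDL7 replicate 1 or 4 or SHAM replicate 1, 3 or 4 (-0.31 to -0.25).

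**Figure D2:**
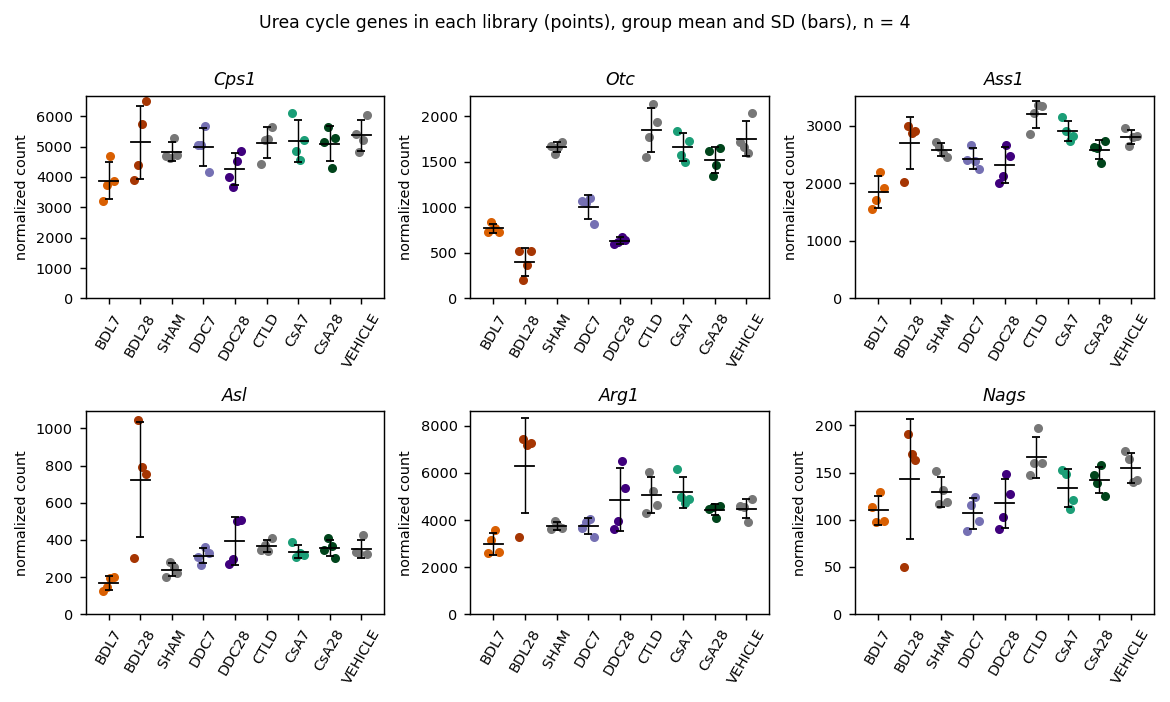
Points are the normalized counts of single libraries (linear axis from 0) for Cps1, Otc, Ass1, Asl, Arg1 and Nags in the 9 groups, with the group mean and SD as bars (n = 4). Otc is lower at day 28 than at day 7 and lower at both than in the controls in BDL and DDC, while Asl and Arg1 stand above SHAM in 4 and 3 of the 4 BDL28 libraries.

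Glutamine and serine breakdown split. Gls2, the liver glutaminase that frees ammonia beside Cps1, fell in BDL7 (-0.83 ± 0.14, adjusted p = 9.92e-06), BDL28 (-0.51 ± 0.14, 0.00254), DDC7 (-0.65 ± 0.14, 0.000203) and DDC28 (-0.82 ± 0.14, 6.81e-06), with no overlap between treated and control libraries in any of these. The serine dehydratases, which turn serine into pyruvate and ammonia, went the other way. Sdsl read 29.24, 19.33, 35.89 and 30.53 in BDL7, 28.53, 80.85, 83.58 and 71.81 in BDL28, and 23.39, 21.1, 16.83 and 20.16 in SHAM. It read 31.95, 36.76, 29.9 and 29.04 in DDC7, 30.83, 28.49, 50.64 and 54.19 in DDC28, and 15.2, 24.28, 18.27 and 17.46 in CTLD. All BDL28, DDC7 and DDC28 libraries were above their controls, and BDL28 replicate 1 was the lowest of its group. Sdsl rose in BDL28 (1.55 ± 0.26, adjusted p = 7.9e-06), DDC7 (0.75 ± 0.26, 0.0181) and DDC28 (1.05 ± 0.26, 0.000952), the DDC7 call being lost without DDC7 replicate 2 (0.68) or CTLD replicate 1 (0.66). Sds, its paralogue, rose in BDL28 (1.24 ± 0.26, 0.000236) and DDC28 (0.85 ± 0.26, 0.00638). Exons of Sds overlap those of Plbd2 on the opposite strand and exons of Gls2 those of Spryd4, and as no source used here says whether counting used the strand, these values are less certain, as are those of Nags, Bhmt and Aldh4a1, whose exons overlap predicted genes.

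All 4 genes of histidine breakdown fell in BDL7 and in DDC28, with 2 of 4 in BDL28 and in DDC7. Hal, histidine ammonia-lyase, which starts the pathway, had 376, 471, 597.2 and 600.7 in BDL7, 520.4, 659.7, 709.5 and 922.8 in BDL28, and 992.2, 1009, 978.4 and 793.3 in SHAM. It had 891.6, 798.3, 867 and 630.3 in DDC7, 591.4, 661.6, 834.7 and 591.5 in DDC28, and 902.1, 973, 1011 and 962.3 in CTLD. BDL7, DDC7 and DDC28 lay wholly below their controls, and 1 BDL28 library reached into the SHAM range. The change was -0.90 ± 0.16 in BDL7 (adjusted p = 3.55e-05), -0.45 ± 0.16 in BDL28 (0.0228), -0.28 ± 0.16 in DDC7 (0.15) and -0.54 ± 0.16 in DDC28 (0.00579). The BDL28 call of Hal was lost under total-count and quantile scaling, without the filter, and without BDL28 replicate 1 (-0.31), BDL28 replicate 2 (-0.43) or SHAM replicate 1, 2 or 3 (-0.43 to -0.41). Uroc1, the next enzyme, fell in all 4, by 0.69, 0.87, 0.40 and 0.74 on the log2 scale in the same order (adjusted p of 1.05e-06 to 0.0113). Amdhd1 fell in BDL7 (-0.64 ± 0.13) and DDC28 (-0.45 ± 0.13). Ftcd, which passes the formimino group to folate, fell in BDL7 (-0.68 ± 0.12), DDC7 (-0.44 ± 0.12) and DDC28 (-0.34 ± 0.12), the last turning to 0.02 under total-count scaling and losing its call without DDC28 replicate 2 (-0.26) or CTLD replicate 2 (-0.29).

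Tyrosine breakdown fell at all 4 steps measured in BDL7 and DDC28, at 3 in DDC7 and at 2 in BDL28. Hpd, which makes homogentisate, fell in every one of these groups. Its values were 427.8, 432.3, 631.1 and 577.8 in BDL7, 400.4, 882, 806.1 and 810.3 in BDL28, and 978.4, 933.3, 1080 and 1009 in SHAM. In the diet groups they were 835.7, 728.8, 704.5 and 557.4 in DDC7, 473.1, 515.6, 711.7 and 675.1 in DDC28, and 1119, 1572, 1511 and 1462 in CTLD. No treated library reached the control range. Hpd changed by -0.97 ± 0.17 in BDL7 (adjusted p = 4.27e-05), -0.53 ± 0.17 in BDL28 (0.0135), -1.01 ± 0.17 in DDC7 (1.99e-05) and -1.26 ± 0.17 in DDC28 (3.7e-07), and without BDL28 replicate 1 the BDL28 value was -0.26 and not called. Fah, the last enzyme of the pathway, fell in BDL7 (-0.71 ± 0.11), DDC7 (-0.76 ± 0.11) and DDC28 (-0.71 ± 0.11), and was -0.21 ± 0.11 in BDL28 (0.101). Hgd, which opens the ring of homogentisate, fell in all 4 by 0.36 to 0.59 on the log2 scale. Tat, the glucocorticoid-inducible aminotransferase that starts the pathway, fell in BDL7 (-0.70 ± 0.24, 0.0219) and DDC28 (-0.65 ± 0.24, 0.0243), both calls lost under total-count and quantile scaling and in 3 and 5 of the 8 fits without a library.

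All 4 genes of tryptophan breakdown fell in BDL7, DDC7 and DDC28, and 3 of 4 in BDL28. Haao, which makes the precursor of quinolinate and so of NAD, had 369.3, 440.4, 442.7 and 407.6 in BDL7, 302, 215.9, 252.6 and 376.2 in BDL28, and 880.7, 850.2, 887.9 and 919 in SHAM. It had 420.4, 428.3, 343.8 and 380.3 in DDC7, 324.7, 368.9, 331 and 303.1 in DDC28, and 1117, 1247, 1242 and 1147 in CTLD. The highest treated library stayed under the lowest control library by a wide margin in each comparison. Haao fell by 1.09 in BDL7 (SE 0.12 throughout, adjusted p = 2.52e-09), 1.65 in BDL28 (4.4e-14), 1.60 in DDC7 (3.01e-13) and 1.84 in DDC28 (2.87e-15) on the log2 scale. Kmo, the hydroxylase before it, fell by 0.78, 1.22, 0.74 and 1.17, and Kynu, which removes alanine, by 0.79, 0.85, 0.47 and 0.86 in the same order, and for both all libraries lay below their controls. Tdo2, the first and rate-limiting enzyme, fell in BDL7 (-0.98 ± 0.19, 8.9e-05), DDC7 (-0.75 ± 0.19, 0.0014) and DDC28 (-0.89 ± 0.19, 0.000172), and was -0.29 ± 0.19 in BDL28 (0.209). The DDC7 value of Tdo2 turned to 0.07 under quantile normalization.

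Methionine and homocysteine genes went both ways. Mat1a, which makes S-adenosylmethionine in hepatocytes, had 4161, 4596, 6782 and 4698 in BDL7, 5318, 10790, 11830 and 13470 in BDL28, and 4050, 4232, 4103 and 3971 in SHAM. It had 5773, 5557, 7667 and 5154 in DDC7, 5526, 5123, 10100 and 8830 in DDC28, and 4206, 5097, 4354 and 4580 in CTLD. All BDL28, DDC7 and DDC28 libraries were above their controls, BDL28 replicate 1 and DDC28 replicates 1 and 2 by little. Mat1a rose in BDL28 (1.26 ± 0.21, adjusted p = 1.63e-05) and DDC28 (0.64 ± 0.21, 0.0128), and the DDC28 call was lost without replicate 3 (0.47) or replicate 4 (0.53).

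Ahcy, which clears S-adenosylhomocysteine, fell early in ligation. It had 868.1, 985.7, 1357 and 1071 in BDL7, 1319, 4323, 3334 and 2863 in BDL28, and 2211, 2151, 2256 and 2436 in SHAM. In DDC7 it had 1714, 1392, 1847 and 1367, in DDC28 1316, 1471, 2617 and 2298, and in CTLD 2179, 2394, 2683 and 2393. BDL7 and DDC7 lay below their controls, while in BDL28 replicate 1 was below and the other 3 above the SHAM range. Ahcy fell in BDL7 (-1.10 ± 0.22, adjusted p = 0.000246) and DDC7 (-0.62 ± 0.22, 0.0245; lost without DDC7 replicate 2, DDC7 replicate 4 or CTLD replicate 3, -0.57 to -0.55). It was 0.26 ± 0.22 in BDL28 (0.347), and 0.61 and called without replicate 1. Cbs, which commits homocysteine to cysteine, fell by 0.63 in BDL7, 0.68 in BDL28, 0.92 in DDC7 and 1.18 in DDC28 (SE 0.14, adjusted p of 1.07e-08 to 0.000434). Cth, the next step to cysteine, instead rose in DDC7 (0.90 ± 0.21, 0.000637) and DDC28 (0.53 ± 0.21, 0.0323), and the DDC28 call was lost without DDC28 replicate 3 (0.39) or 4 (0.45) or CTLD replicate 1 (0.42) or 2 (0.54). Gnmt, which consumes surplus S-adenosylmethionine, fell in BDL7 (-0.68 ± 0.19), DDC7 (-0.63 ± 0.19) and DDC28 (-0.46 ± 0.19), each turning to a value above 0 under quantile normalization (0.01, 0.06 and 0.31). The DDC28 call of Gnmt was also lost without DDC28 replicate 1 (-0.33) or 2 (-0.36) or CTLD replicate 2, 3 or 4 (-0.45 to -0.39). Bhmt, which remethylates homocysteine with betaine, fell in DDC28 (-0.999 ± 0.25, 0.0015).

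Glycine and glyoxylate genes held the steepest fall among the 38 in BDL7, BDL28 and DDC28. Hao1, the peroxisomal oxidase that turns glycolate into glyoxylate, had 360.9, 499.4, 301.1 and 364.1 in BDL7, 195.8, 70.74, 134.7 and 172.6 in BDL28, and 1457, 1469, 1513 and 1518 in SHAM. It had 408.8, 429.9, 462.4 and 439.8 in DDC7, 225.1, 214.4, 174.5 and 205.7 in DDC28, and 1283, 1430, 1186 and 1269 in CTLD. Treated and control libraries were far apart, and the 2 days of each model did not overlap. Hao1 was 3.96-fold lower in BDL7 (log2 -1.99 ± 0.17, adjusted p = 1.39e-10), lower by a factor of 11.04 in BDL28 (-3.46 ± 0.17, 8.3e-17), 2.96-fold lower in DDC7 (-1.57 ± 0.17, 9.99e-09) and 6.29-fold lower in DDC28 (-2.65 ± 0.17, 5.31e-14). Agxt, which turns glyoxylate back into glycine, fell less, by 0.71, 0.78, 0.43 and 0.62 on the log2 scale in the same order (SE 0.12). Amt, a subunit of the glycine cleavage system, fell by 0.66, 1.32, 0.63 and 0.90 (SE 0.16). Gldc, the decarboxylase subunit, fell in BDL7 (-0.70 ± 0.16, 0.000609) and DDC28 (-0.51 ± 0.16, 0.00701).

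The promoter of Hao1 is shown because it is the most lowered member after ligation, beside those of Hal and Hgd, because all 3 fell in BDL7, BDL28 and DDC28 (Hal in BDL28 with the losses given above) and carry letters that C/EBP factors are known to bind. The windows run from 250 bases before to 50 bases after the transcription start (RefSeq, build GRCm38.p6), 5′ to 3′ on the strand of the gene. Capitals mark TTGCNNAA on either strand and, in Hal at the second site, ACANNNTGT, the core of a glucocorticoid response element.
Hao1: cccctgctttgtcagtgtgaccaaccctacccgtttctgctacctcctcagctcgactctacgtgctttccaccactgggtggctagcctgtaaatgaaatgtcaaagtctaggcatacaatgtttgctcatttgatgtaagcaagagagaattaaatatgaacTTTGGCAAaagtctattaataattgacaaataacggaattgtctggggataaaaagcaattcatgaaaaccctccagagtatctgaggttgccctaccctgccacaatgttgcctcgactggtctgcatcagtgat
Hal: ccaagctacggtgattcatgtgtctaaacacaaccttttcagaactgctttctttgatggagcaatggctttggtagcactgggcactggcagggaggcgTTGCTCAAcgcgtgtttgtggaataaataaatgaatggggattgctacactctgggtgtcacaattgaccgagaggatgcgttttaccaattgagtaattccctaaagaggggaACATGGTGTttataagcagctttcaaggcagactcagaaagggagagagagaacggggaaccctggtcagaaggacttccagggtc
Hgd: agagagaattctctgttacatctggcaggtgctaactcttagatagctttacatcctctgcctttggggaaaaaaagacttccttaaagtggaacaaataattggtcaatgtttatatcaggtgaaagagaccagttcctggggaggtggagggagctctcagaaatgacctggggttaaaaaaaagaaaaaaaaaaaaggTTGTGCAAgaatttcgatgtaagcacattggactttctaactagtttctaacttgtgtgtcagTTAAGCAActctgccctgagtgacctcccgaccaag
The windows lie at chr2:134554303-134554602 on the minus strand, chr10:93488518-93488817 on the plus strand and chr16:37579903-37580202 on the plus strand. RefSeq windows matched 28 of the 38 genes, 29 windows in all. The C/EBP letters stood in 4 of the 29 (13.8%, in Aass, Hal, Hao1 and Hgd), against 10.8% of 32851 mouse promoters of that length. Aass, whose window is not shown, was not called against its control in any group. The 3 windows shown were picked for having both the letters and the falls, and a link between them was not tested. The glucocorticoid core stood in 4 (13.8%; Bhmt, Gnmt, Hal and Tdo2), against 6.85%. TGACGTCA, the cyclic AMP response element, CAAAGTCCA of HNF4 and GTTAATNAT of HNF1 stood in 0 of the 29, against 1.79%, 0.475% and 0.801%. Both strands were searched, and a match is a description of these letters only.

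Among the aminotransferases, Got1, Gpt and Gpt2 made up 3 of the 8 rises in BDL28 and 3 of the 7 in DDC28. Tat and Agxt, aminotransferases given above, fell in BDL7 and DDC28, and Agxt also in BDL28 and DDC7. Got2, a mitochondrial aminotransferase that is not a member, fell in BDL7 (-0.41 ± 0.08), DDC7 (-0.32 ± 0.08) and DDC28 (-0.30 ± 0.08). Got1, the cytosolic aspartate aminotransferase that is also a serum marker of liver injury, had 478.7, 598.1, 651.1 and 546.5 in BDL7, 820.5, 1267, 1709 and 1055 in BDL28, and 692.2, 610.6, 736.4 and 624.9 in SHAM. It had 675.2, 978.1, 797.2 and 638.8 in DDC7, 796.5, 485.7, 1706 and 1762 in DDC28, and 560.5, 464.7, 373.2 and 667.7 in CTLD. All BDL28 libraries were above SHAM, and 3 of the 4 DDC28 libraries above CTLD. Got1 rose in BDL28 (0.82 ± 0.29, adjusted p = 0.0236) and DDC28 (1.04 ± 0.29, 0.0039), the BDL28 call being lost without BDL28 replicate 2 (0.78) or 3 (0.63) or SHAM replicate 2 (0.78) or 4 (0.79). Gpt, the cytosolic alanine aminotransferase, rose in BDL28 (0.72 ± 0.18, 0.00109) and DDC28 (0.42 ± 0.18, 0.0469), the DDC28 call being lost without DDC28 replicate 3 (0.28) or 4 (0.35) or CTLD replicate 1 (0.31) or 2 (0.40). Gpt2, its mitochondrial counterpart, rose in BDL28 (0.71 ± 0.12, 4.86e-06), DDC7 (0.54 ± 0.12, 0.000257) and DDC28 (0.83 ± 0.12, 2.26e-07). Aldh4a1, the last step of proline breakdown, fell in BDL7 (-0.34 ± 0.09), BDL28 (-0.59 ± 0.09) and DDC28 (-0.35 ± 0.09), the last turning to 0.01 under total-count scaling. Prodh, the first step, measured -0.74 ± 0.31 in BDL7 (0.0583) and -0.69 ± 0.31 in DDC7 (0.0659), and Aass, which starts lysine breakdown, was not called in any of the 6 comparisons.

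**Figure D3:**
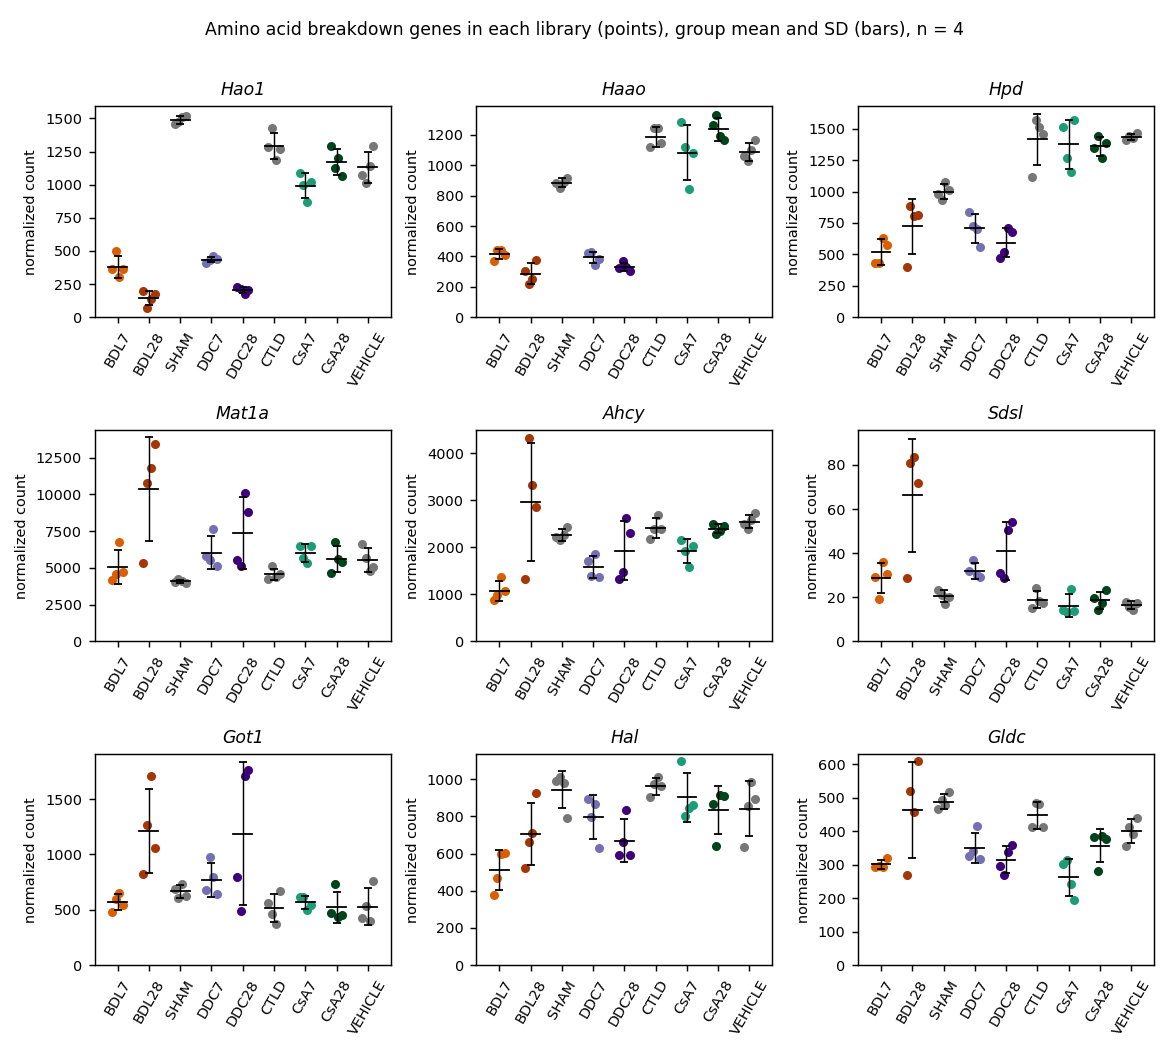
Points are normalized counts of single libraries (linear axis from 0) for Hao1, Haao, Hpd, Mat1a, Ahcy, Sdsl, Got1, Hal and Gldc in the 9 groups, with the group mean and SD as bars (n = 4). Hao1, Haao and Hpd lie below their controls in all BDL and DDC libraries, Sdsl, Mat1a and Got1 lie above SHAM in all 4 BDL28 libraries, and among the CsA groups Gldc and Ahcy in CsA7 do not overlap VEHICLE.

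Many of the genes stood higher at day 28 than at day 7 after ligation, and 0 did on DDC; the difference between these day changes was not tested. In BDL28 against BDL7, 19 of the 38 were higher and 6 lower, beside 14% higher and 16.7% lower over all genes tested, and the median of the 38 was 0.45, against -0.02 over all genes. In DDC28 against DDC7, 0 were higher and 3 lower (2.07% and 3.63%), and in CsA28 against CsA7, 0 and 1 (1.37% and 1.07%). The largest rises were those of Asl (2.01 ± 0.24, adjusted p = 7.05e-07), Ahcy (1.36 ± 0.22, 3.9e-05), Sdsl (1.09 ± 0.26, 0.00159), Got1 (1.05 ± 0.29, 0.00745) and Arg1 (1.02 ± 0.18, 8.8e-05). Ass1 (0.55 ± 0.11, 0.000174), Fah (0.50 ± 0.11, 0.000445), Tdo2 (0.69 ± 0.19, 0.00511) and Gldc (0.56 ± 0.16, 0.00668) had fallen in BDL7, were higher in BDL28 than in BDL7, and were not called against SHAM in BDL28. The 6 genes that were lower in BDL28 than in BDL7 had all fallen in BDL7 already: Hao1 (-1.48 ± 0.17), Otc (-1.04 ± 0.17), Amt (-0.67 ± 0.16), Haao (-0.56 ± 0.12), Kmo (-0.44 ± 0.11) and Aldh4a1 (-0.25 ± 0.09). The 3 lower in DDC28 than in DDC7 were Hao1 (-1.09 ± 0.17, 0.00011), Otc (-0.66 ± 0.17, 0.0151) and Kmo (-0.43 ± 0.11, 0.0122), Otc losing its call without DDC7 replicate 1 (-0.63) or 3 (-0.61) and Kmo without DDC7 replicate 2 (-0.40). Without BDL28 replicate 1 the counts for BDL28 against BDL7 were 25 higher and 5 lower, and against SHAM 12 rises and 13 falls, Nags (0.43) and Aass (0.32) then among the rises.

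**Figure D4:**
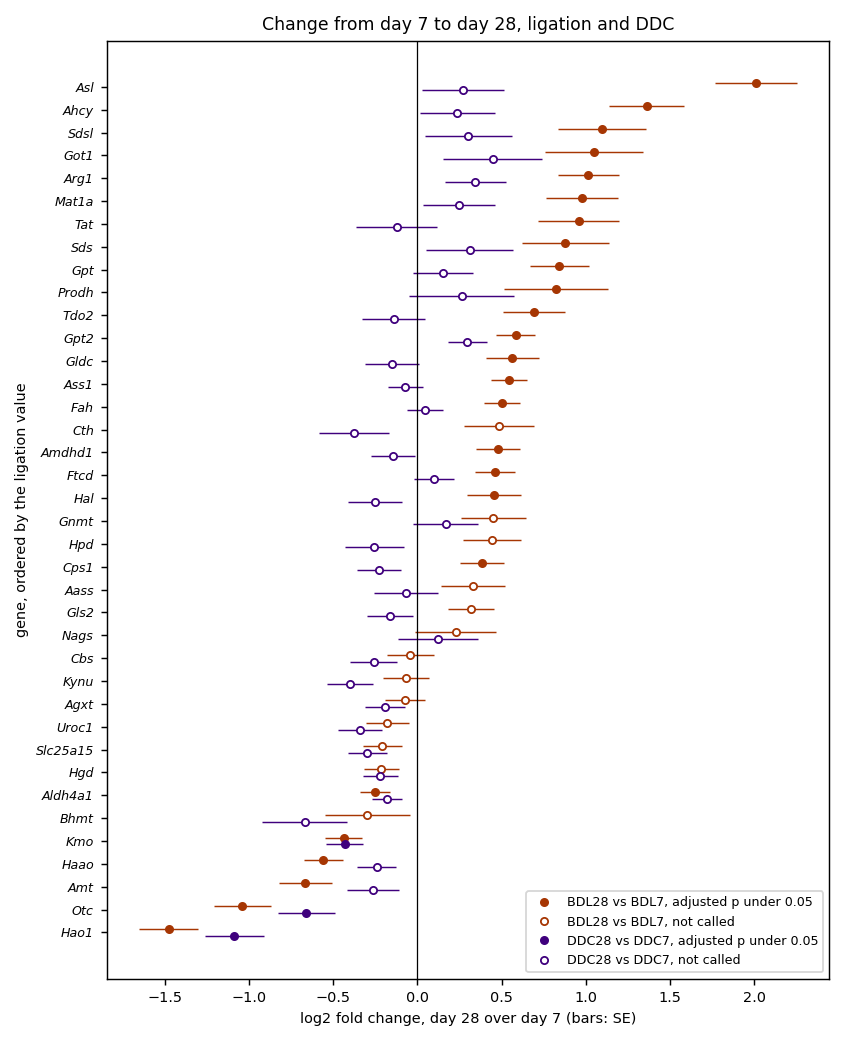
Points give the log2 fold change of each of the 38 genes at day 28 over day 7 for ligation and for DDC, with the SE as a bar, filled where the adjusted p was under 0.05, and ordered by the ligation value. After ligation 19 filled points lie above 0 and 6 below it, from Asl (2.01) to Hao1 (-1.48), and on DDC 3 filled points lie below 0.

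The models differed in a few of the genes. The difference between the effects of ligation and DDC was called for 1 gene on each side at day 7, beside 3.78% of all genes higher and 4.68% lower. There Haao had fallen less in BDL7 than in DDC7 (difference 0.50 ± 0.16, adjusted p = 0.0476), a call lost in 7 alternatives, total-count, TMM and quantile scaling and edgeR among them, with SHAM itself 0.42 below CTLD on the log2 scale. Cth was -0.07 in BDL7 and had risen by 0.90 in DDC7 (difference -0.97 ± 0.29, 0.0342). At day 28 it was called for 3 genes higher and 1 lower (4.69% and 5.59% of all genes): Asl (1.43 ± 0.34, 0.00913), Ass1 (0.52 ± 0.15, 0.0238) and Fah (0.50 ± 0.15, 0.0277) were higher in the BDL28 effect, and Hao1 lower (-0.81 ± 0.25, 0.0321). Single libraries decide this count: without BDL28 replicate 1 the BDL28 effect was higher for 15 genes, and for 1 without BDL28 replicate 2, BDL28 replicate 3 or DDC28 replicate 1. SHAM itself lay below CTLD on the log2 scale in Asl (-0.63), Ass1 (-0.30) and Fah (-0.25), and above it in Hao1 (0.21). The libraries of SHAM and CTLD did not overlap in any of them, but the control difference was called for Ass1 alone. Against cyclosporin A, the BDL7 effect was lower for 16 genes and higher for 0 (11.9% and 11.7% of all genes), and the DDC7 effect was lower for 13 and higher for Cth alone, 1 gene (12.8% and 14.2%). At day 28 the BDL effect was lower than that of cyclosporin A for 11 genes and higher for 7 (15% and 14.8%), and the DDC effect lower for 16 and higher for 1, Gpt2 (17.1% and 18.5%). Without BDL28 replicate 1 the BDL28 effect was higher for 11 genes, and the DDC28 effect was higher for 5 without DDC28 replicate 1 and for 7 without DDC28 replicate 2. The control groups themselves differed in few of these genes. SHAM was above VEHICLE in Slc25a15 (0.33) and below it in Hpd (-0.52) and Fah (-0.36), 1 and 2 genes beside 10.3% and 9.65% of all, and it was above CTLD in 0 and below it in 3, Ass1 (-0.30), Haao (-0.42) and Cbs (-0.48), beside 8.09% and 7.84% of all.

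With cyclosporin A, 1 of the 38 genes was called at day 7 and 0 at day 28. Gldc, the gene called in CsA7, had 301.6, 313.1, 241.4 and 195 in CsA7 and 354.1, 411.8, 390.7 and 439.8 in VEHICLE, with no overlap. Its change was -0.62 ± 0.16 (adjusted p = 0.0187), and the call was lost without CsA7 replicate 3 (-0.59), CsA7 replicate 4 (-0.49) or VEHICLE replicate 4 (-0.57). In CsA28 it had 383.2, 282.3, 385.3 and 374.9, overlapping VEHICLE, with a change of -0.17 ± 0.16 (0.794). Agxt was lower in CsA28 than in CsA7 (-0.42 ± 0.12, 0.0479) and was called in neither group against VEHICLE, and this call was lost without any 1 of 7 of the 8 CsA libraries. None of the urea cycle genes was called: in CsA7 Otc was -0.07 ± 0.17 and Arg1 0.21 ± 0.18, and in CsA28 Otc was -0.21 ± 0.17 and Asl 0.01 ± 0.24.

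Among the 10 members known to be highest near the portal vein (Cps1, Otc, Ass1, Asl, Arg1, Gls2, Sds, Sdsl, Hal and Uroc1), 0 rose and 6 fell in BDL7, 4 and 4 did in BDL28, 1 and 5 in DDC7, and 2 and 5 in DDC28. Of all genes tested, 20.2% and 18.5% were called higher and lower in BDL7, 24.1% and 22.7% in BDL28, 24.7% and 22.1% in DDC7 and 27.9% and 24.7% in DDC28, and the counts of this and the following lists stand beside these shares. Genes of the opposite, perivenous system were low at day 28. Glul, glutamine synthetase, had 1049, 1285, 1750 and 1479 in BDL7, 352.2, 416.2, 501.5 and 601.3 in BDL28, and 2266, 2271, 2308 and 2607 in SHAM. It had 1421, 1294, 1125 and 752.1 in DDC7, 489.6, 371.7, 395.2 and 549.3 in DDC28, and 2131, 2532, 2988 and 2471 in CTLD. No day 28 library reached the day 7 range in either model. Glul changed by -0.79 ± 0.21 in BDL7 (adjusted p = 0.00355, lost under total-count and quantile scaling), -2.36 ± 0.21 in BDL28 (1.81e-10), -1.17 ± 0.21 in DDC7 (4.02e-05) and -2.49 ± 0.21 in DDC28 (4.55e-11). Of the other 4 genes of this list, the ammonia channel Rhbg fell in BDL28 (-2.64) and DDC28 (-2.03). Its group means there were only 3.919 and 4.506 normalized counts, against 29.54 in SHAM and 23.09 in CTLD. The glutamate carrier Slc1a2 fell in BDL7 (-0.97, lost under total-count and quantile scaling and without BDL7 replicate 1 or 2 or SHAM replicate 4), BDL28 (-2.53) and DDC28 (-2.39). The neutral amino acid carrier Slc1a4 rose in BDL7 (2.44), BDL28 (0.95) and DDC7 (0.93). Oat, which links ornithine to glutamate, fell in BDL28 (-0.83 ± 0.33, 0.0393). From day 7 to day 28, 0 of the 5 rose and 4 fell after ligation, and 0 rose and 3 fell on DDC. Among the 10 periportal members 7 rose and 1 fell after ligation, and 0 rose and 1 fell on DDC; over all genes 14% rose and 16.7% fell after ligation and 2.07% and 3.63% did on DDC, and the difference between the lists was not tested.

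Some regulators of these genes fell too. Of 14 transcription factors and receptors, 0 rose and 7 fell in BDL7, 1 and 4 did in BDL28, 1 and 8 in DDC7 and 2 and 8 in DDC28. Ppara, the fasting and fatty acid receptor, fell by 1.21, 1.32, 1.68 and 1.23 on the log2 scale in this order and rose by 0.57 in CsA7. Cebpa, which encodes C/EBP alpha, fell by 0.58 in BDL7 (not called under total-count scaling, -0.26), 1.08 in BDL28, 1.09 in DDC7 and 1.02 in DDC28. Gcgr, the glucagon receptor, fell by 0.49, 0.66, 0.30 and 0.39, with calls lost under total-count scaling in BDL7 (-0.16), DDC7 (0.05) and DDC28 (-0.03). Klf15, a glucocorticoid-induced factor for amino acid breakdown, had 198.8, 270.6, 274.2 and 255.7 in BDL7, 356.1, 606.4, 507 and 445.9 in BDL28, and 480.3, 490.2, 548.1 and 462.5 in SHAM. It had 348.5, 448.3, 387.7 and 252.1 in DDC7, 379.2, 323.3, 567.9 and 597 in DDC28, and 419.7, 571.5, 566.3 and 482.3 in CTLD. Klf15 fell in BDL7 (-0.99 ± 0.18) and in DDC7 (-0.52 ± 0.18, adjusted p = 0.0201; lost under total-count and quantile scaling and without DDC7 replicate 4, CTLD replicate 2 or CTLD replicate 3). It was -0.07 ± 0.18 in BDL28 and -0.16 ± 0.18 in DDC28, both turning positive under total-count and quantile scaling, and it was higher in BDL28 than in BDL7 (0.92 ± 0.18, adjusted p = 0.000325).

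**Figure D5:**
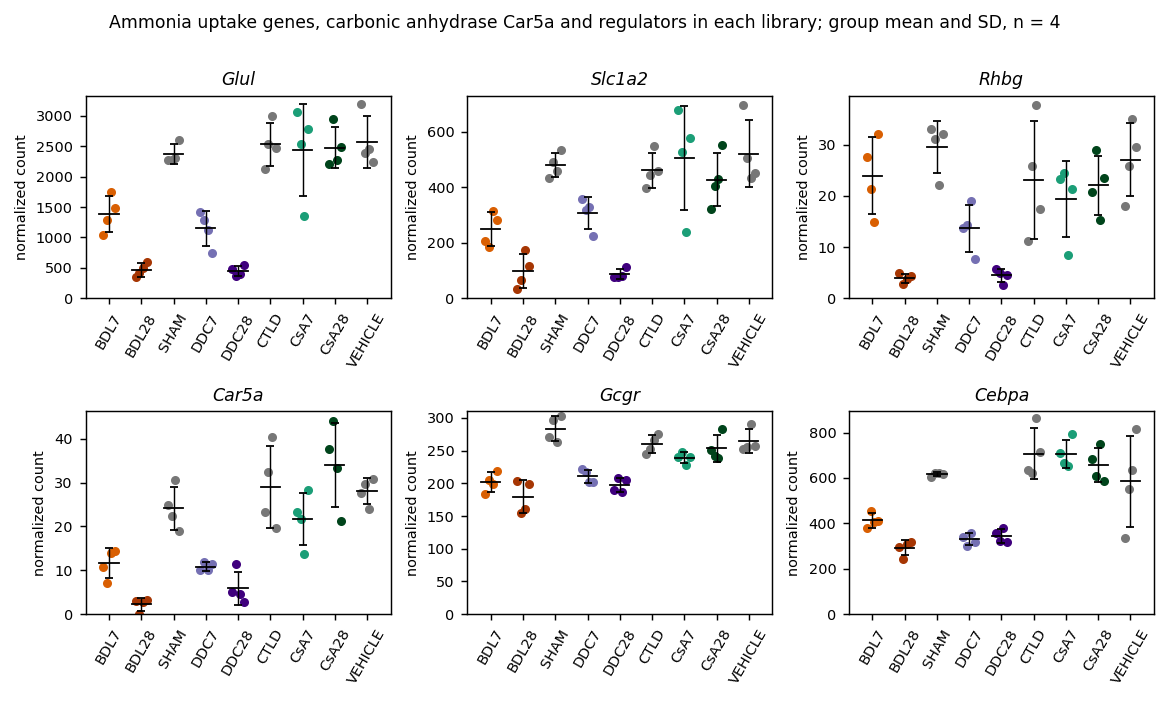
Points are normalized counts of single libraries (linear axis from 0) for Glul, Slc1a2, Rhbg, Car5a, Gcgr and Cebpa in the 9 groups, with the group mean and SD as bars (n = 4). Glul, Slc1a2 and Rhbg are lower in BDL28 and DDC28 than at day 7, without overlap between the days.

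Neighbouring pathways outside the 38 fell as well. In branched-chain amino acid breakdown, 17 of 19 genes tested fell and 1 rose in BDL7, 15 and 1 did in BDL28, 11 and 1 in DDC7, and 12 and 1 in DDC28. Acadsb, a dehydrogenase of isoleucine breakdown, fell by 1.16, 1.42, 1.07 and 1.38 on the log2 scale in this order. Of 11 other aromatic amino acid genes, 9, 8, 9 and 9 fell and 0, 0, 1 and 1 rose. Qdpr, which recycles the cofactor of phenylalanine hydroxylase, fell by 0.95, 1.13, 0.58 and 0.75, and Ido2, another tryptophan dioxygenase, by 1.04, 2.14, 1.04 and 1.70. Of 13 other glycine, proline, lysine and transamination genes, 9, 7, 7 and 7 fell and 1, 3, 2 and 2 rose. Aadat, an aminotransferase for kynurenine and aminoadipate, fell by 1.54, 1.02, 1.39 and 1.56, Grhpr, which reduces glyoxylate, by 0.60, 1.17, 1.04 and 1.13, and the asparaginase Asrgl1 rose by 0.98, 1.78, 1.45 and 2.22. Of 17 other sulfur and one-carbon genes, 5, 8, 8 and 8 fell and 1, 2, 3 and 2 rose. Sardh, sarcosine dehydrogenase, fell by 0.93, 0.88, 0.81 and 1.18.

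Genes that supply the urea cycle and amino acid carriers were called in both directions. Of 9 support genes tested, 6, 4, 5 and 6 fell and 0, 2, 1 and 1 rose. Car5a, the mitochondrial carbonic anhydrase that supplies bicarbonate to Cps1, fell by 1.02, 3.14, 1.29 and 2.20 and was at 0 in 1 BDL28 library, against 18.97 to 30.51 normalized counts in SHAM. The BDL7 call of Car5a was lost under total-count scaling (-0.72) and without BDL7 replicate 2 (-0.82) or SHAM replicate 3 (-0.91). The aspartate carrier Slc25a13 fell in BDL7 (-0.63 ± 0.10), BDL28 (-0.70 ± 0.10) and DDC28 (-0.27 ± 0.10). Of 14 amino acid transporters, 3, 4, 4 and 6 rose and 3, 3, 2 and 3 fell, against the shares over all genes given above. Slc43a2, a carrier of large neutral amino acids, rose by 1.51, 1.44, 1.83 and 2.18 and Slc7a8 by 1.79, 0.87, 1.96 and 2.22, while Slc25a44, the branched-chain amino acid carrier of mitochondria, fell by 0.49, 1.04, 0.99 and 1.20. In CsA7, 3 of the 14 rose, among them Slc38a3 (0.64 ± 0.15) and Slc7a2 (0.70 ± 0.17). Of 8 genes of amino acid synthesis and the starvation response, 1, 2, 2 and 3 rose and 0, 0, 0 and 1 fell. Psat1, of serine synthesis, rose by 2.12, 2.01, 2.31 and 2.22. Its group means were 11.98, 11.47, 12.24 and 12.31 normalized counts, against 2.704 in SHAM and 2.158 in CTLD, so these changes rest on few reads. Trib3, a target of the amino acid starvation response, rose in DDC7 (1.96 ± 0.43), DDC28 (2.74 ± 0.43) and CsA7 (2.58 ± 0.43). In CsA28 none of these lists had a called gene.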

How the data were processed

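Liver RNA of 36 mouse samples in 9 groups of 4 was measured by QuantSeq with molecular identifiers. The submitters' processing notes name build GRCm39 and the tools STAR 2.7.9a, RSEM 1.3.1, DESeq2, UMI-tools 1.1.1 and Trim Galore; no settings or annotation release were found in the sources used here. What the authors deposited for 29546 Ensembl IDs is a signal, each library's counts over a single factor. Division by the smallest step gave whole reads for 100% of values within 0.001 read, from 2081093 to 3770267 per library (median 2826073).

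Of the IDs, 29121 were paired with a symbol through GENCODE M21 and 425 were not. The 38 members and all gene lists were chosen with earlier results of these data known. Genes at 10 or more normalized counts in at least 4 libraries were kept (12596). limma 3.58.1 in R 4.3.3, with trend and robust empirical Bayes, was fitted to log2(normalized count + 1) of all 36 libraries with 1 mean per group and 27 residual degrees of freedom. Its fold changes are on that scale, which understates the change of low genes. P-values are two-sided and adjusted by Benjamini-Hochberg over the 12596 genes, also where a difference between models or days was tested. The fit was tested on simulated data with 200 changed genes, far fewer than were called after ligation or on DDC. Over the 6 comparisons it recovered 28% to 45% of 1.5-fold changes and 56% to 70% of 2-fold changes. A gene that was not called may therefore still have changed.

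Every library's values were printed for the 5 core urea cycle enzymes, for the 3 called members with the largest change in each comparison with a control, for the largest of each pathway and for members called in opposite directions. Of other lists, the counts and up to 2 called genes with the lowest adjusted p per comparison were given, with Glul, Gcgr and Klf15 in any case. Alternatives were pseudocounts of 0.5 and 5, no filter, total-count, TMM and quantile scaling, limma without trend and robust options, the replicate block, edgeR 4.0.16 (quasi-likelihood) and DESeq2 1.42.0 on the recovered reads, only the groups compared, and leaving out each library.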

Additional observations from a re-analysis of the deposited data

Results flagged for a closer look

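In 24 of the 342 groups of 4 examined (7.02%), 1 library lay so far from the other 3 that its gap to the nearest exceeded Dixon's critical share of the range, and chance alone flags about 1 in 20 groups. BDL28 replicate 1 was apart in 4 genes: Ass1 (2019), Arg1 (3271), Gls2 (280.4) and Hpd (400.4 normalized counts), each below the other 3. CsA28 replicate 2 was apart in 4 as well, low in Kynu (299.5) and Gldc (282.3) and high in Bhmt (6350) and Got1 (734.1). CsA7 replicate 3 was apart in 3, low in Hgd (658.4) and Kynu (269.0) and high in Sdsl (23.76). In BDL7, Amt (155.4) and Aldh4a1 (444.5) were apart in replicate 1, Kmo (587.9) in replicate 2, Gnmt (3255) and Aass (1037) in replicate 3 and Gldc (320.6) in replicate 4. Single flags were Agxt in BDL28 replicate 4 (237.9), Arg1 in CsA7 replicate 1 (6159), Slc25a15 in CsA28 replicate 4 (1058), Hal in SHAM replicate 4 (793.3), Cbs in CTLD replicate 1 (1169), Asl in VEHICLE replicate 3 (425.7) and Aass in VEHICLE replicate 4 (1042).

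The effect at day 28 differed from that at day 7 by the limma test of the difference (adjusted p under 0.05) for 29 pairs of gene and model. After ligation the log2 difference, day 28 minus day 7, was 2.01 for Asl, 1.36 for Ahcy, 1.09 for Sdsl, 1.05 for Got1, 1.02 for Arg1, 0.98 for Mat1a, 0.96 for Tat, 0.88 for Sds, 0.84 for Gpt, 0.82 for Prodh and 0.69 for Tdo2. It was 0.58 for Gpt2, 0.56 for Gldc, 0.55 for Ass1, 0.50 for Fah, 0.48 for Amdhd1, 0.46 for Ftcd, 0.46 for Hal and 0.39 for Cps1. It was -1.48 for Hao1, -1.04 for Otc, -0.67 for Amt, -0.56 for Haao, -0.44 for Kmo and -0.25 for Aldh4a1. On DDC it was -1.09 for Hao1, -0.66 for Otc and -0.43 for Kmo, and with cyclosporin A it was -0.42 for Agxt.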

How the results depend on the processing

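Scaling to the total count moved more counts of calls than any other setting, and quantile normalization reversed more members. Members called higher and lower were then 4 and 16 in BDL7, 13 and 12 in BDL28, 9 and 9 in DDC7, 7 and 14 in DDC28, and 2 and 1 in CsA7. Over all genes the counts were 4923 and 922 in BDL7, 4829 and 1672 in BDL28, 5575 and 1210 in DDC7, 5838 and 1602 in DDC28, and 699 and 140 in CsA7, with 8 higher in CsA28. The share of calls that were higher moved to 84.2% in BDL7, 74.3% in BDL28, 82.2% in DDC7, 78.5% in DDC28, 83.3% in CsA7 and 80% in CsA28, against 52.3%, 51.5%, 52.8%, 53%, 46.7% and 33.3% with the authors' factors. Comparisons between models are of their effects, each against its own control. The BDL7 effect was higher than the DDC7 effect for 0 members. The DDC7 effect was higher than that of CsA7 for 3 and lower for 6. The BDL28 effect was higher than the DDC28 effect for 5. The DDC28 effect was higher than that of CsA28 for 7 and lower for 7. With this scaling Cps1 in DDC7 (0.31), Slc25a15 in BDL7 (0.0275), Ftcd in DDC28 (0.0186) and Aldh4a1 in DDC28 (0.0119) reversed.

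Quantile normalization gave 4 members higher in BDL7, 13 in BDL28, 2 in CsA7, 9 higher and 12 lower in DDC7, and 14 lower in DDC28. It called 0 genes in CsA28, 1 member higher in DDC28 than in DDC7 and 0 lower in CsA28 than in CsA7. Between the effects of the models it called 0 higher for BDL7 than for DDC7, and 5 higher and 7 lower for DDC7 than for CsA7. It called the effect higher for 11 in BDL28 than in CsA28, and for 7 in DDC28 than in CsA28. It reversed Cps1 (0.39), Ass1 (0.0340), Slc25a15 (0.0374), Gnmt (0.00697) and Bhmt (0.67) in BDL7, Cps1 (0.76), Ass1 (0.26), Arg1 (0.33), Tdo2 (0.0671) and Gnmt (0.0556) in DDC7, and Cps1 (0.54), Ass1 (0.18), Arg1 (0.75) and Gnmt (0.31) in DDC28.

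The fit of only the groups compared gave 1 member higher in BDL7, 6 in DDC7 and 4 in DDC28 and 2 lower in CsA7, and over all genes 101 higher and 158 lower in CsA7 and 0 in either direction in CsA28. In CsA28, the pseudocount of 5 and limma without trend and robust options called 0 genes either way, the unfiltered fit and edgeR 0 higher, and DESeq2 25 higher and 43 lower. The 1 member lower in CsA28 than in CsA7 became 0 without the filter, with TMM and in limma without trend and robust options. The 1 member with a higher effect in BDL7 than in DDC7 became 0 in those 3 fits, with the replicate block and in edgeR. The 1 with a lower effect became 0 without the filter. For the BDL28 effect against the DDC28 effect, the block and edgeR called 5 higher, DESeq2 6, and the unfiltered fit 0 lower. For the DDC28 effect against the CsA28 effect, limma without trend and robust options, the block and edgeR called 2 higher and DESeq2 3. On the recovered reads, edgeR called 0 members higher and 25 lower in BDL7, 8 and 15 in BDL28, 3 and 21 in DDC7 and 7 and 24 in DDC28, and DESeq2 0 and 25, 9 and 15, 3 and 23, and 7 and 24.

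Without 1 library at a time, members higher and lower ranged from 0 to 0 and 22 to 26 in BDL7, 7 to 12 and 13 to 16 in BDL28, 2 to 3 and 17 to 21 in DDC7, 4 to 7 and 20 to 25 in DDC28, and 0 to 0 and 0 to 1 in CsA7. Over all genes they ranged from 110 to 230 higher and 118 to 259 lower in CsA7 and from 0 to 18 both ways in CsA28. Between days, 16 to 25 members were higher and 5 to 8 lower in BDL28 than in BDL7, 2 to 4 lower in DDC28 than in DDC7, and 0 to 1 lower in CsA28 than in CsA7. Between the effects of the models, 0 to 1 members were higher and 0 to 1 lower for BDL7 than for DDC7. The effect was higher for 1 to 2 in DDC7 than in CsA7. It was higher for 1 to 15 and lower for 0 to 3 in BDL28 than in DDC28. The effect was higher for 5 to 11 in BDL28 than in CsA28, and for 1 to 7 in DDC28 than in CsA28. In BDL28, Nags ranged from -0.20 to 0.43 and Aass from -0.17 to 0.32, both positive and called without BDL28 replicate 1.

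Calls held under every alternative run for 15 of 25 members in BDL7, 19 of 23 in BDL28, 10 of 23 in DDC7, 14 of 30 in DDC28 and 0 of 1 in CsA7, and for 21 of 25, 1 of 3 and 0 of 1 between the days of ligation, DDC and cyclosporin A. Correlations between libraries of the same replicate number exceeded 0.1 in 0 of 4 pairs in each comparison with a control. Between the days of ligation 2 of 4 did. The numbers in the sample titles differ from the replicate numbers, so pairing by the titles was not examined. With the replicate block, members higher and lower were 0 and 25, 8 and 15, 3 and 21, 7 and 23, 0 and 1, and 0 and 0 in BDL7, BDL28, DDC7, DDC28, CsA7 and CsA28. The cause of these differences between settings was not tested. Depth limits the low genes, such as Sdsl, Car5a, Rhbg and Psat1, more than the abundant ones.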
